A study of Mus musculus with 5 samples.

Results

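Csf1, Ccl9, Fgf7, Igfbp4 and Igfbp6 are 5 genes whose proteins fibroblasts secrete: a macrophage growth factor, a chemokine, a fibroblast growth factor and a pair of insulin-like growth factor binding proteins. They were chosen by gene name, with their ratios between Erbb2-transfected and parental cells already known. Each was measured by 1 probe, so they take up 5 of the 11723 probes with exactly 1 gene symbol, and 5 of the 9669 genes that such probes name. The transfected cells were NIH3T3 mouse fibroblasts constitutively overexpressing human ERBB2 (HER-2/neu), a receptor tyrosine kinase, from a cytomegalovirus promoter, and they were set against the untransfected parental NIH3T3 line. The labels do not say whether the transfected cells were 1 clone, and name no line with an empty vector. Both lines were grown in the same medium with fetal calf serum, and their RNA was hybridised together, in different dyes, to 5 cDNA arrays. Arrays A1, A2 and A3 came from preparation A, and B1 and B2 from preparation B. Erbb2-transfected cells carried Cy5 on A3 and B2 and Cy3 on A1, A2 and B1.

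Values are given on the log2 scale as the ratio of Erbb2-transfected to NIH3T3 signal, so that -1 stands for a 2-fold lower signal in the transfected cells. The numerator dye of the deposited ratios is not stated. Cy5 over Cy3 was assumed, since Cy5 is the first channel in the labels, and with the other reading every sign below turns. An array gives a ratio and no level, and RNA says nothing about the amount of protein secreted. Fewer cells that express a gene and less RNA per cell cannot be told apart. The arrays held values for between 5368 (A1) and 17463 (B1) of 20205 probes. Across shared probes, their turned ratios correlated between 0.45 and 0.52 in pairs of the same dye orientation. In pairs of opposite orientation the correlation was between 0.17 (A2 with B2) and 0.54 (A1 with A3). Whether preparations A and B came from different cultures is not in the labels, and the differences between them may be technical.

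Csf1 is the ligand of the macrophage receptor Csf1r and controls the survival and proliferation of macrophages. Ccl9 is a CC chemokine of mice that signals through the receptor Ccr1. Fgf7, also called keratinocyte growth factor, is made by mesenchymal cells and acts on epithelial cells through a splice form of Fgfr2. Igfbp4 and Igfbp6 are extracellular proteins that hold insulin-like growth factors away from the receptor Igf1r. Igfbp4 is cut by the protease Pappa, which frees the growth factor, and Igfbp6 prefers Igf2 over Igf1.

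All 5 genes were lower in Erbb2-transfected cells on every array with a value, which made 24 values below 0 of 24. Of all features with values on 4 or 5 arrays, 12.7% were likewise below 0 throughout. This contrast is the one by which the genes were chosen, so the comparison describes them and supports nothing further. Fgf7 had the lowest mean ratio, at -3.92, which is 15.1-fold lower in Erbb2-transfected cells. Ccl9 was 6.54-fold, Igfbp4 4.55-fold, Csf1 3.85-fold and Igfbp6 1.92-fold lower. In limma's fit across 4892 features, the 4 of these genes that could be fitted were all among the features called lower, as were 4.54% of all features, while 2.25% were called higher. Igfbp6 was not among them without array A3 or B2, with arrays scaled to equal spread or with quantile normalization. Nor was it when preparations with a single dye orientation were admitted, where plain means of the arrays also replaced the equal weighting of orientations. Fgf7 had no value on B1 and was outside the fit.

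The promoters of 4 of the genes are shown because all were lower in Erbb2-transfected cells while they differ in base composition and in the motif letters near the start. Each sequence is the 250 bases before the start that the RefSeq promoter table uses for the gene, assembly GRCm38.p6, 5′ to 3′ on the gene's strand, and capitals mark motif matches on either strand. The Csf1 window lies at chr3:107760470-107760719 (minus strand), that of Ccl9 at chr11:83578637-83578886 (minus strand), that of Fgf7 at chr2:126034408-126034657 (plus strand) and that of Igfbp4 at chr11:99040994-99041243 (plus strand). The start used for Igfbp4 lies inside the annotated span of the gene, downstream of its 5′ end, so that positions in this window count from that inner start.
Csf1: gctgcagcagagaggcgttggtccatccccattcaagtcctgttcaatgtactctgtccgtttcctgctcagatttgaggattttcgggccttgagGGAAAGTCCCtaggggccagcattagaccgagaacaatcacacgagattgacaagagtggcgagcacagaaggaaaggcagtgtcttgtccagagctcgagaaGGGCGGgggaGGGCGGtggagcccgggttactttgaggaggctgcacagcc
Ccl9: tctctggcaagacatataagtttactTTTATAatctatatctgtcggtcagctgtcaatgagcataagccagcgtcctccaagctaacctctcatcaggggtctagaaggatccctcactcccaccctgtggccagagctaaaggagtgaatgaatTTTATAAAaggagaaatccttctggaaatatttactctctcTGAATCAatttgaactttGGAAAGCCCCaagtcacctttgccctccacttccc
Fgf7: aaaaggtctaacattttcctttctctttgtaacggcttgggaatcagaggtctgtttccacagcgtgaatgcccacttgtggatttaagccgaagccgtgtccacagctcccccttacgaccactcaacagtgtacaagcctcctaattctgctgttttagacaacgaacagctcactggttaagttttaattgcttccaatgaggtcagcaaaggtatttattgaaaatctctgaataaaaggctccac
Igfbp4: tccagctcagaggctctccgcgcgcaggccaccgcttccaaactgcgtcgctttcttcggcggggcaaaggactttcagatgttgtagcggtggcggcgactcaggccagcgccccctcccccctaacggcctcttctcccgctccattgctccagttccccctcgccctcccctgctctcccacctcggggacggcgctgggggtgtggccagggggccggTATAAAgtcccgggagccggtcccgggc

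The search covered the AP-1 motif TGANTCA, the GC box GGGCGG, the TATA box TATAAA, the STAT motif TTCNNNGAA and the NF-kB motif, on both strands. All 5 genes were matched to a promoter. The TATA box letters stood in 3 of the 5 windows (Ccl9, Igfbp4 and Igfbp6), against 12.4% of 32851 promoter windows. In Igfbp4 they began 28 bases before the inner start, on the gene's strand. Ccl9 held them 92 bases before the start on its strand and at 94 and 224 bases on the other strand, the first of these overlapping the match on its own strand, and in Igfbp6 the match lay on the other strand, 148 bases before the start. Csf1 had 2 GC boxes, a motif found in 32.7% of all windows. NF-kB motifs were found in Csf1 and Ccl9 (3.90% of windows) and an AP-1 motif in Ccl9 alone (6.75%). The STAT motif, present in 7.02% of windows, was in none of the 5, and Fgf7 had no match to any of the 5 motifs. The G and C content was 69.2% in Igfbp4, 56.4% in Csf1, 49.6% in Igfbp6, and 43.6% in both Ccl9 and Fgf7, against a median of 52.4% over all windows. These matches describe letters in a window and not binding sites.

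Among the ligands, Csf1 had -2.82 on A1, -1.16 on A2, -1.46 on A3, -2.41 on B1 and -1.91 on B2. The highest and the lowest of these ratios both came from preparation A with the same dye orientation, so arrays of 1 preparation spread more than the preparation means did. Those means were -1.73 in preparation A and -2.16 in preparation B, which gave -1.95 ± 0.31 (SD, n = 2 preparations).

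Ccl9 had -4.12 on A1, -2.44 on A2, -1.53 on A3, -2.77 on B1 and -3.25 on B2. It spread most of the 4 genes measured on all arrays, with 2.59 between A1 and A3, which belong to 1 preparation. The mean was -2.71 ± 0.43 (SD, n = 2 preparations), and -3.15 without A3. The A1 value was the 1 of the 24 values that equalled a ratio of whole numbers up to 300 after removal of the array's constant, as 47.0% of the values of A1 did, against 2.66% once the constant was shifted.

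Fgf7 had -4.32 on A1, -3.77 on A2, -5.36 on A3 and -3.13 on B2. All 4 ratios lay below -3, and the 3 of preparation A lay below that of preparation B. The value on B1 is empty, although B1 held values for 86.4% of probes. Among 3020 features with values on the other 4 arrays, 148 lacked one on B1. Of the 11 features whose mean over those 4 arrays was -3 or lower, Fgf7 was the only one without it. The mean of preparation means was -3.92 ± 1.11 (SD, n = 2 preparations), where preparation B stands for 1 array in 1 dye orientation. Without that array, B2, the ratio was -4.70, from preparation A alone.

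Of the IGF binders, Igfbp4 had -2.69 on A1, -2.53 on A2, -2.55 on A3, -1.13 on B1 and -2.46 on B2. The arrays other than B1 lay within a narrow band, and B1 stood apart from it. The mean was -2.19 ± 0.55 (SD, n = 2 preparations), and -2.52 without B1. Igfbp6 had -1.31 on A1, -1.38 on A2, -1.45 on A3, -0.18 on B1 and -0.77 on B2. Its 3 ratios of preparation A were close to each other and below both of preparation B, and the mean was -0.94 ± 0.65 (SD, n = 2 preparations). On B1 alone the Igfbp6 signal was 1.13-fold lower in Erbb2-transfected cells, against 2.73-fold on A3.

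**Figure D1:**
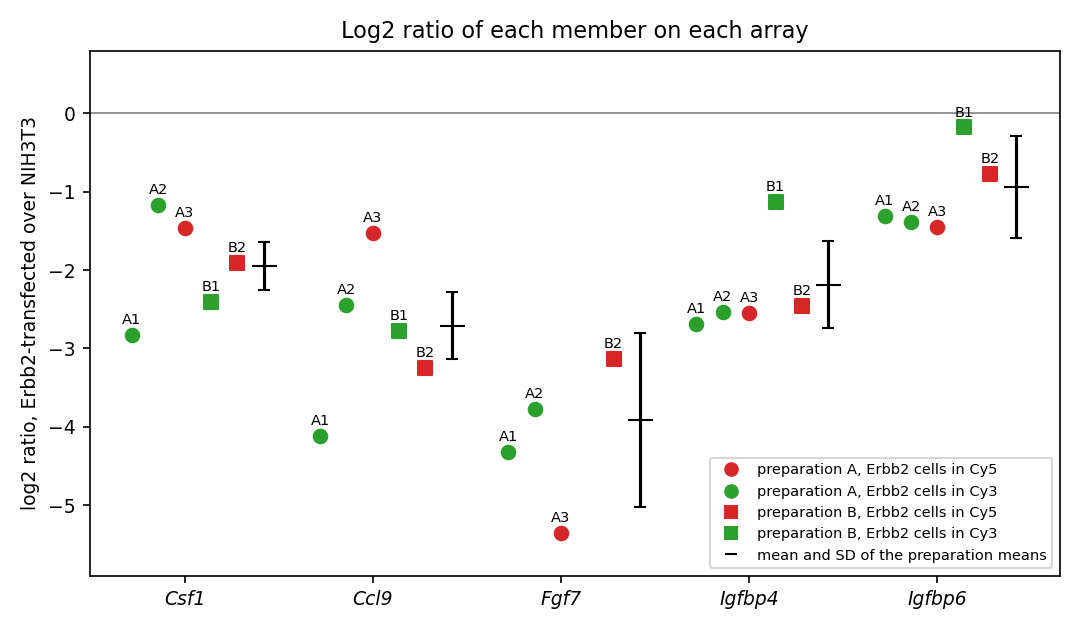
Log2 ratio of Erbb2-transfected over NIH3T3 cells (vertical axis) for each of the 5 genes on each array, with circles for preparation A, squares for preparation B, red for Erbb2-transfected cells in Cy5 and green for Cy3; the bar is the mean and SD of the 2 preparation means. All 24 points lie below 0, and B1 is the highest point of both Igfbp4 and Igfbp6.

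The arrays differed in the width of their ratios, with an SD over all probes of 0.53 on B1 and 0.85 on A1. The place of each gene among the features of an array, which such a difference in scale leaves unchanged, was therefore also taken. The features with values differed between arrays, from 5059 on A1 to 15838 on B1, so these shares do not refer to a common set. Fgf7 had between 0.0582% (A3) and 0.256% (B2) of features below it. For Igfbp4 this share was between 0.401% (A2) and 1.42% (B1), so that its smaller ratio on B1 still lay near the low end of that array. Ccl9 had between 0.145% (B1) and 2.46% (A3) of features below it, and Csf1 between 0.177% (B1) and 4.52% (A2). The share of Igfbp6 differed most in percentage points, with 2.95% to 4.07% of features below it on the arrays of preparation A, 13.5% on B2 and 33.3% on B1.

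By mean ratio the genes ran from Fgf7 through Ccl9, Igfbp4 and Csf1 to Igfbp6, each read by its own probe. This order did not hold on single arrays. Fgf7 was below Ccl9 on 3 of 4 arrays, the exception being B2, where they differed by 0.12. Ccl9 was below Igfbp4 on 3 of 5 arrays, Igfbp4 below Csf1 on 3 of 5, and Csf1 below Igfbp6 on 4 of 5. The steps from Ccl9 to Igfbp4 and from Igfbp4 to Csf1, at -0.52 and -0.24 of mean log2 ratio, were smaller than the range of each gene over the arrays.

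**Figure D2:**
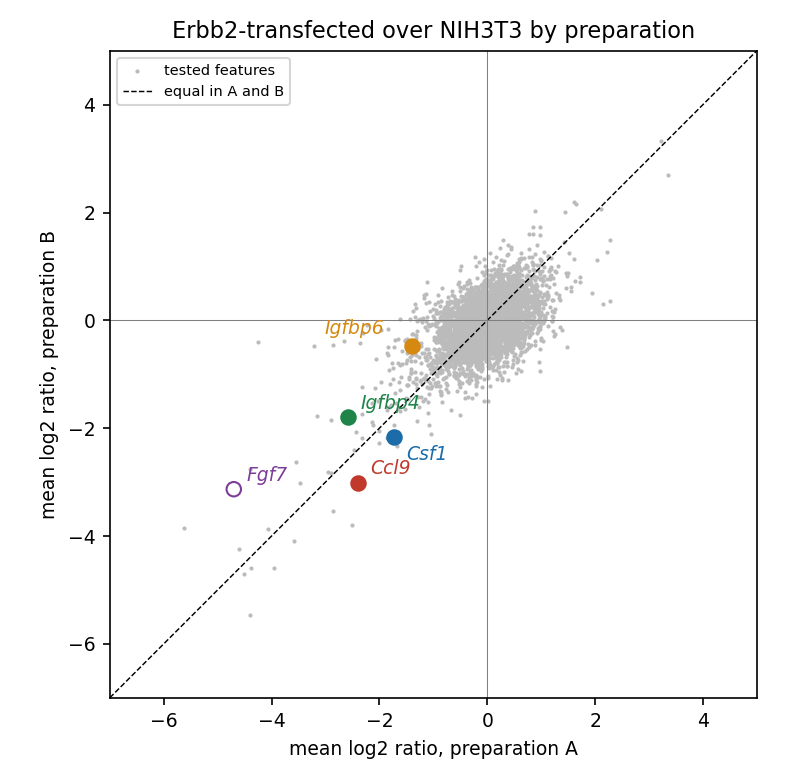
Mean log2 ratio of Erbb2-transfected over NIH3T3 cells in preparation A (horizontal axis) against preparation B (vertical axis); grey points are the 4892 tested features, of which 1 lies outside the axes, filled circles are Csf1, Ccl9, Igfbp4 and Igfbp6, and the open circle is Fgf7, whose preparation B value is array B2 alone. Csf1 and Ccl9 lie below the line of equal values, lower in preparation B, and Igfbp4, Igfbp6 and Fgf7 lie above it, lower in preparation A.

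The dye orientation and the preparation were tested on the arrays with limma. The tests use the same arrays whose ratios were known when the genes were chosen. Small effects in these genes are therefore no independent support for their ratios. The dye effect, as the ratio with Erbb2-transfected cells in Cy5 minus that in Cy3, was 0.52 for Csf1 (95% interval -0.461 to 1.496, adjusted p = 0.659). It was 0.80 for Ccl9 (-0.35 to 1.95, adjusted p = 0.55), -0.53 for Igfbp4 (-1.40 to 0.33, adjusted p = 0.61) and -0.31 for Igfbp6 (-1.11 to 0.48, adjusted p = 0.757). None of the 4 genes passed at an adjusted p under 0.05, or at an unadjusted p under 0.05, while 29 features or 0.593% of those tested passed and 645 did so unadjusted. With each gene below 0 on every array with a value, its mean in each orientation had to be below 0. These means were -1.69 in Cy5 and -2.13 in Cy3 for Csf1, -2.39 and -3.11 for Ccl9, and -4.24 and -4.04 for Fgf7. For Igfbp4 they were -2.50 and -2.12, and for Igfbp6 -1.11 and -0.96.

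Between preparations A and B, Csf1 and Ccl9 differed by 0.43 (95% interval -0.55 to 1.41) and 0.45 (-0.70 to 1.60), with adjusted p = 0.959 and adjusted p = 0.961 by limma. The binders went the other way: Igfbp4 by -0.88 (-1.75 to -0.01, adjusted p = 0.721) and Igfbp6 by -0.96 (-1.75 to -0.16, adjusted p = 0.67). Both of these intervals exclude 0, but neither difference passed after adjustment over all features, where 1 feature or 0.0204% passed and 330 did so unadjusted. The difference of Igfbp4 rested on B1, at -1.13, while B2, at -2.46, lay near the ratios of preparation A. In the 7 alternatives fitted, the lowest adjusted p of these 4 genes was 0.248 for the dye effect (Ccl9, without A2) and 0.315 for the preparation (Ccl9, without A1). The intervals leave room for differences of 1 on the log2 scale in all 4 genes. In Fgf7, which was outside the fit, the preparation means were -4.70 in A and -3.13 in B.

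**Figure D3:**
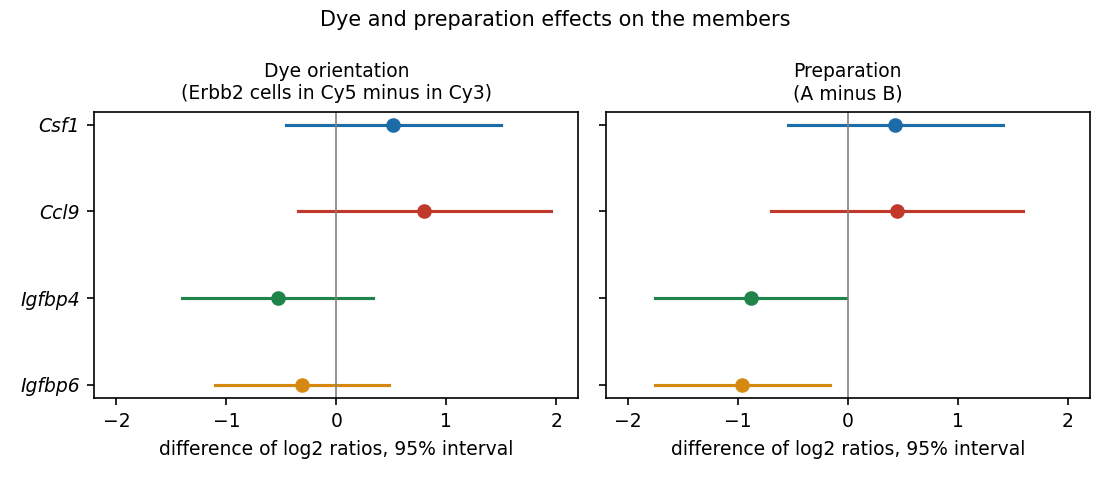
Differences of log2 ratios with 95% intervals (horizontal axes) for the 4 genes tested, by dye orientation (left, Erbb2-transfected cells in Cy5 minus in Cy3) and by preparation (right, A minus B). All 4 dye intervals cross 0, while the preparation intervals of Igfbp4 and Igfbp6 lie just below it.

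The genes whose ratios over the 5 arrays came nearest to those of each gene were found among 2006 other genes with values on all arrays, by the root mean square difference of log2 ratios. Nearest to Csf1 were Cyp26b1 (0.53), an enzyme that degrades retinoic acid, Pcolce (0.64), which enhances procollagen processing, and Ltbr (0.68), the lymphotoxin beta receptor. The nearest to Ccl9 was Timp3 (0.99), followed by Csf1 (1.02) and Cyp26b1 (1.12). Ptprs (0.41), Tinagl1 (0.42) and Rbl2 (0.58) came nearest to Igfbp4. Like Igfbp4, Ptprs had its highest ratio on B1, at -1.40, against -2.49 to -2.02 on the other arrays. Tinagl1 and Rbl2 were highest there too, at -1.36 and -1.39, and nearness over these same arrays selects for such a match. Isg20 (0.20), Smim22 (0.27) and Pdia4 (0.28) were nearest to Igfbp6. Pdia4, a disulphide isomerase of the endoplasmic reticulum, had 0.10 on B1 and -1.96 on A3. Between the binders the difference was 1.28, which put Igfbp6 at place 47 among the genes nearest to Igfbp4, and Igfbp4 at place 1185 among those nearest to Igfbp6. These distances were not tested.

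The other ligands, receptors and binders of these families were described from 10 lists, in which 75 further genes had a value and 23 were tested. Of the 23, 2 fell, 1 rose and 20 did not pass, with a median log2 ratio of -0.04. The median was -0.02 over all tested features and -0.04 over those that are named genes. The share that fell was 8.70%, against 4.54% of all features, and the share that rose was 4.35%, against 2.25%. Among named genes alone, 167 of 3134 fell and 68 rose.

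Of 5 chemokine ligands tested besides Ccl9, 0 passed, with ratios between -0.27 (Ccl1) and 0.01 (Ccl27a) and a median of -0.10, and Ccl5, Ccl8 and Mif had -0.19, -0.03 and -0.10. Outside the test, Ccl28 was below 0 on 4 of 4 arrays, between -0.73 and -0.23, and Cxcl12 was at -0.62 on A2, at -0.63 on B1 and at 0.09 on B2. Cx3cl1 was above 0 on 4 of 4 arrays, between 0.01 and 0.82. Ccr1 gave no value used here, and 0 of the 6 chemokine receptors with values could be tested. Ccr6, Ccr7, Ackr1 and Ackr2 were each measured on 3 arrays, with ratios of both signs. Il34, the other ligand of Csf1r, had 1.36 on A1, 1.16 on A2, -0.45 on A3, 0.93 on B1 and 0.68 on B2, opposite in sign to Csf1 on 4 of 5 arrays, with a mean of 0.60 ± 0.28 (SD, n = 2) that did not pass (adjusted p = 0.118).

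Among FGF genes, Fgf10, the closest relative of Fgf7 in the family, had 0.08 ± 0.29 (SD, n = 2) and Fgf18 had -0.03 ± 0.03. Neither passed. Fgfr2, the receptor gene of Fgf7, was measured on B1 and B2 alone, at -0.63 and -0.16, and Fgfr1 on 3 arrays, all below 0, between -0.49 and -0.20. Gpc4, a glypican and thus a cell surface heparan sulphate carrier, rose by 1.04 ± 0.39 (SD, n = 2; adjusted p = 0.0166), was above 0 on 4 of 4 arrays, and passed in 10 of 13 alternatives, the exceptions being scaling to equal spread, quantile normalization and the admission of preparations with 1 dye orientation (adjusted p from 0.00228 to 0.0732). Its 2 probes taken alone averaged 1.63 over 2 arrays and 0.83 over 4. The former had values on A2 and B1 alone, both with Erbb2-transfected cells in Cy3. Gpc1, Gpc6 and Sdc1 did not pass, at -0.12, 0.25 and -0.21. Of the genes downstream of FGF receptors, Dusp6, a phosphatase of ERK, had 0.87 ± 0.65 (adjusted p = 0.0582; passed in 7 of 14 alternatives), and Etv4, a transcription factor, had 0.37 ± 0.37. Both were above 0 on 4 of 4 arrays and neither passed.

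Among IGF genes, Igf1r, the receptor that the binders keep ligands from, fell by 0.85 ± 0.46 (SD, n = 2; adjusted p = 0.0479). It was below 0 on 5 of 5 arrays, at -1.71 on B2 and between -0.76 and -0.44 elsewhere. Its 2 probes taken alone averaged -0.75 over 5 arrays and -0.69 over 3, and only the former had values on A3 and B2. Its call was lost without A3 or B2, with scaling to equal spread, with quantile normalization and with preparations of 1 dye orientation (adjusted p from 0.00801 to 0.198 over the alternatives). Igf2r and Insr did not pass, at -0.04 and 0.33. Of the other binding proteins, Igfbp1 had -0.18 ± 0.22 (SD, n = 2) and did not pass, Igfbp2 had -0.72, -0.33 and -0.22 on A2, B1 and B2, and Igfbp3 had -0.35, 0.24 and 0.23 on the same arrays. Pappa gave no value used here, and Igf2 had 0.77 on B2 alone.

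Of 5 further growth factor genes tested, Fstl1, which encodes a secreted glycoprotein, fell by 0.82 ± 0.42 (SD, n = 2; adjusted p = 0.0497). It was below 0 on 5 of 5 arrays, but passed in 8 of 15 alternatives, and not without A3, B1 or B2 (adjusted p from 0.00118 to 0.253 over the alternatives), and 1 of its 2 probes had 0.64 on A2. Grn, Vegfa, Tgfb2 and Gdnf did not pass, at -0.58, -0.16, -0.24 and 0.04. Grn was below 0 on 5 of 5 arrays. Of the EGF family, 3 genes had values and 0 could be tested.

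**Figure D4:**
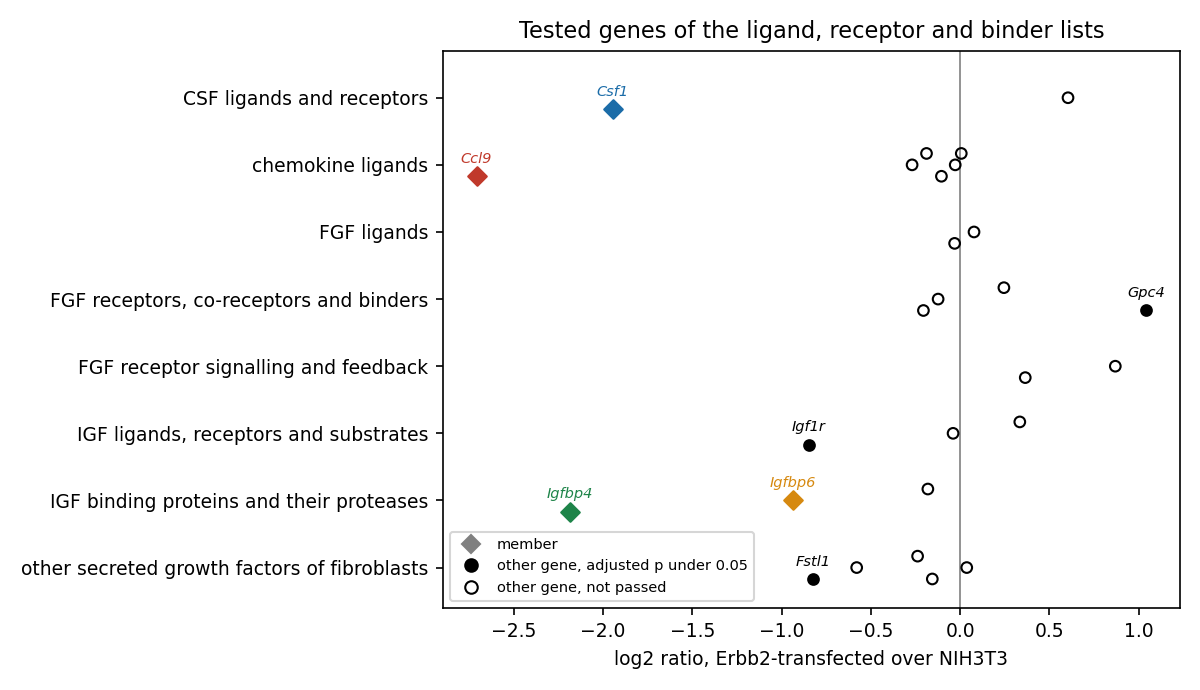
Log2 ratio of Erbb2-transfected over NIH3T3 cells (horizontal axis) of the tested genes of each list; diamonds are Csf1, Ccl9, Igfbp4 and Igfbp6, filled circles other genes with an adjusted p under 0.05 and open circles genes that did not pass. Csf1, Ccl9 and Igfbp4, which were chosen with their ratios known, lie to the left of every other tested gene of their lists. The lists of Csf1 and of the IGF binding proteins each hold only 1 tested gene besides the members. Of the other genes Gpc4 lies furthest right, at 1.04, as a mean of 2 probes. Its probe measured in both dye orientations averaged 0.83, below the 0.87 of Dusp6.

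Markers of fibroblasts and of other cell types were set beside these values, and their part in them was not tested. As ratios they give no level, so a marker's absence cannot be read from them. Of 8 fibroblast markers 6 had values, and the 2 tested, Vim and S100a4, did not pass, at 0.47 and -0.01. Of those not tested, Dcn was below 0 on 3 of 3 arrays, between -0.87 and -0.50, Dpt had -0.73 on B1 alone, and Thy1 and Pdgfrb had both signs on 2 arrays each. Of 10 macrophage and leukocyte markers, which bear on Csf1 and Ccl9, 6 had values. The 1 tested, Cd74, had 0.10 ± 0.88 (SD, n = 2; adjusted p = 0.872). Of those not tested, Fcgr3 was above 0 on 3 of 3 arrays, between 0.39 and 0.60, Ptprc had -1.44 on A3 and -0.01 on B1, Tyrobp had -0.36 on B1 alone, and Cd68 and Lyz2 had both signs on 3 arrays each. Krt19, of the epithelium, and Flt1, of the endothelium, had 0.19 and 0.16 and did not pass, and none of the adipocyte markers was tested. Among untested epithelial markers, Krt14 was below 0 on 3 of 3 arrays, between -0.71 and -0.18, and Cldn4 had -0.01 on B1 alone. Epcam and Krt18 had both signs on 3 arrays each. On B1 alone, the endothelial Vwf had -0.18 and the adipocyte marker Adipoq -0.09. Lpl, also of adipocytes, had -0.13 on A2 and -0.35 on B1, and Fabp4 had both signs on 3 arrays.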

How the data were processed

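Slides were scanned on a GenePix 4000A and read with GenePix Pro 3.0, per the labels, and the authors subtracted background from mean intensities and brought the median ratio of each array to 1. What they deposited are log2 ratios between dyes. The base was found from the values: on A2, 58.8% came within 1.1e-06 of a constant plus the log2 of a quotient of whole numbers no larger than 300, against 3.93% for natural logarithms. What leaves a value empty, and which dye is the numerator, the sources used here do not give.

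Ratios were turned to Erbb2-transfected over NIH3T3. Probes sharing a single gene symbol were combined by their mean, and other probes stayed separate, which gave 18151 features. In the platform annotation 11723 probes have 1 symbol, 806 have several and 7676 are not listed. Preparation means weight both dye orientations equally. The alternative that admits preparations with 1 dye orientation is the exception, since it takes the plain mean of the arrays of each preparation for all features. The 4892 features with both orientations in both preparations were tested, on the 2 preparation means against 0, with lmFit and eBayes of limma 3.58.1 (R 4.3.3; 10.2 prior degrees of freedom) and Benjamini-Hochberg adjustment. Dye and preparation effects were fitted together on the 5 arrays. Members, lists, tests and alternatives were chosen with earlier results of these data known. Genes named besides the members are list genes that passed, those with values on all 5 arrays, a few further list genes measured on the most arrays, and the 3 genes nearest to each tested member; some further genes of the same lists, the receptors of the members among them, were named after their values were seen. Alternatives changed the unit of replication, centring, scaling, normalization, probe summary, missing values, variance estimate and threshold, and left out each array. The tests were also tried on simulated data, with values not given here. The number of arrays limits the precision.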

Additional observations from a re-analysis of the deposited data

Results flagged for a closer look

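In 34 genes, the 5 described and those of the 10 lists, values on 4 or 5 arrays allowed a search for an array that stood apart from the others, and 4 were found, where chance alone gives about 5% of genes. Igfbp4 had -1.13 on B1, against -2.69 to -2.46 on the other 4 arrays. Cx3cl1 had 0.82 on A1, against 0.01 to 0.10. Igf1r had -1.71 on B2, against -0.76 to -0.44. It has 2 probes, and only 1 of them gave a value on A3 and B2. That probe alone ran from -0.92 (B1) to -0.21 (A1) on the other arrays. In it B2 fell short of the limit of this search, so the flag came from combining the probes. Vegfb, measured on 4 arrays, had 0.71 on B1, against 0.36 to 0.38.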

How the results depend on the processing

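Recomputing the means of the 5 genes gave 59 alternative values, all below 0. Since each gene was below 0 on every array with a value, averages over fewer or reweighted arrays could not turn its sign. With 1 probe per gene, the alternatives that treat probes differently returned the reported means where they applied, as did Fgf7 without B1. Of the 59 values, with these unchanged ones included, 58 moved by less than the SD between preparations. The mean of Fgf7, whose SD was 1.11, nevertheless ran from -4.70 (without B2, which leaves preparation A alone) to -3.59 (without A3). The 1 value that moved by more than its SD was that of Ccl9 without A3, whose mean ran from -3.15 (without A3) to -2.50 (without A1) when single arrays were left out. The number of features called between the cell lines, 332 as reported, depended on the processing. It was 509 with 5 arrays and an estimated correlation within preparations, 124 with arrays scaled to equal spread, 193 with quantile normalization, 564 with only probes measured in both orientations of both preparations, 544 with each probe as a feature, 120 at an adjusted p under 0.01 and 185 when a change of at least 1 was also asked for. Leaving out 1 array gave 198 (without B2) to 498 (without A1), with 219 without A3 and 211 without B1. The number of features with a dye effect, 29 as reported, was 7 after scaling to equal spread, 4 with values on all 5 arrays, 6 at an adjusted p under 0.01, and 2 (without A3 or B1) to 256 (without A1) when an array was left out. It was 56 without A2 and 4 without B2. The number that differed between preparations, 1 as reported, ranged from 1 to 25 (without A1 or A2), with 3 without B2. Several alternatives also tested another set of features, so these counts do not share a common base. With an array left out, dye and preparation effects were fitted only on features with values on all remaining arrays. The cause of these shifts was not tested, apart from the stricter thresholds, which call fewer features by construction. Signal over background is not analysed here, and empty values limit Fgf7 most.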
